A study of Homo sapiens with 3 samples.

Results

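The EGF receptor (ERBB) family and its ligands were examined in T24 cells, a human bladder carcinoma line. The members were taken by name: the receptors EGFR, ERBB2 and ERBB3 and the ligands AREG, EREG, HBEGF, TGFA, NRG1 and BTC, which are 9 of the 58381 genes counted. All 9 had at least 10 reads in a library, as did 20527 genes in all. There were 3 RNA-seq libraries from 3 conditions: Ctrl, unirradiated cells given the pLKO.1 control vector; RT, control cells exposed to ionising radiation from a 137Cs source, with a dose of 10 Gy in the labels; and RT + shHDAC6, irradiated cells given a lentiviral shRNA against the deacetylase HDAC6. By the methods and labels, all cells went through lentiviral infection and puromycin selection, although the study elsewhere calls the irradiated comparator of the shRNA cells parental. Each condition had 1 library, so differences are without a replicate check and are given with no p-value. RT against Ctrl addresses how irradiation changed expression of the family, and RT + shHDAC6 against RT how the shRNA changed it in irradiated cells. No library held unirradiated shRNA cells. RT + shHDAC6 against Ctrl therefore differs in both irradiation and shRNA, which it cannot tell apart. The comparisons share libraries, so each is given with its own values and none is independent of the others.

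ERBB receptors are tyrosine kinases of the cell surface that pair up when a ligand binds and then phosphorylate each other's tails. EGFR binds AREG, EREG, HBEGF, TGFA and BTC, whereas NRG1 binds ERBB3 and ERBB4. ERBB2 has no known ligand and serves as a partner, and ERBB3 has an impaired kinase and relies on its partner to signal through PI3 kinase. The ligands are made as membrane-bound precursors that metalloproteases of the ADAM family release, and the activated receptors feed the RAS-ERK and PI3K-AKT cascades. The family is active in urothelium, where it takes part in growth and wound repair, and its members are frequent targets of alteration in bladder carcinoma.

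EGFR (ENSG00000146648.17) lies on chromosome 7 from 55019017 to 55211628 of GRCh38, and EREG, AREG and BTC lie close to each other on chromosome 4. The 250 bases before the start of these 4 genes are shown because EGFR had the highest level among the receptors in RT and EREG had much the same ratios, while AREG and BTC are neighbours of EREG, of which AREG was lowest in RT and BTC was called lower in RT + shHDAC6 against RT. They come from RefSeq on GRCh38.p14 and are written 5′ to 3′ on the strand of the gene, at chr7:55018767-55019016 (plus strand), chr4:74364895-74365144 (plus strand), chr4:74444886-74445135 (plus strand) and chr4:74794524-74794773 (minus strand). Capitals mark matches, on either strand, to 5 motifs: the TATA box (TATAAA), the CCAAT box, the GC box bound by Sp1 (GGGCGG), the AP-1 site (TGANTCA) and the cAMP response element. The last was searched as TGACGTCA. The marked matches do not overlap each other.
EGFR: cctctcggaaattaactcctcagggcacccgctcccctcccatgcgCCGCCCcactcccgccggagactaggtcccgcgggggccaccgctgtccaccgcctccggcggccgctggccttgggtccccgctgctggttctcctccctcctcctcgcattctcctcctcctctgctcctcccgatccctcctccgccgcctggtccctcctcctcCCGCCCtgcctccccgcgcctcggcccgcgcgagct
EREG: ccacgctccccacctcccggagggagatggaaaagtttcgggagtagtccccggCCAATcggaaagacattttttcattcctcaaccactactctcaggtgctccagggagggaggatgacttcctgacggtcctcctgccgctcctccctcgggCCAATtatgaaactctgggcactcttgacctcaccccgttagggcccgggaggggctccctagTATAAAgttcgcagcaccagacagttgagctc
AREG: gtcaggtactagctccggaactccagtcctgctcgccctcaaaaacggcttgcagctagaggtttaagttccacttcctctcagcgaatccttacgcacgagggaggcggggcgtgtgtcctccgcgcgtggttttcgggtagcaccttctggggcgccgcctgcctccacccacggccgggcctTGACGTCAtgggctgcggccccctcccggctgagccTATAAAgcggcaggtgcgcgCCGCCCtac
BTC: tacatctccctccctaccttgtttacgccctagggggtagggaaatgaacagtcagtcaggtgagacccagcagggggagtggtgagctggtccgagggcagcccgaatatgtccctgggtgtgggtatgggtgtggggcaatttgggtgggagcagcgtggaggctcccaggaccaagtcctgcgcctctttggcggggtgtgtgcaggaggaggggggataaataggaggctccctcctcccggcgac
EGFR held 2 GC boxes, starting 204 and 36 bases before the gene, and no TATA box, with a GC content of 73.6%. EREG had a TATA box at 32 bases and CCAAT boxes at 196 and 95 bases before its start. AREG had a TATA box at 29 bases, a GC box at 9 bases and the cAMP response element at 65 bases before its start. BTC held none of the 5 motifs in this window. Of 34943 RefSeq promoter windows of the same length, 10.8% held the TATA box, 32% the CCAAT box, 42.5% the GC box, 6.59% the AP-1 site and 1.63% the cAMP response element. RefSeq windows were found for 7 of the 9 members. Of those not shown, HBEGF had 5 GC boxes, TGFA had 3, and ERBB2 had 1 CCAAT box and 1 AP-1 site. The RefSeq start used was 367 bases from the annotated gene start for TGFA and 180 bases for ERBB2, and at that start for the 4 genes shown. A match gives only the letters present and says nothing of binding in these cells.

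The libraries held 35424086 to 41811165 counts. Counts were scaled by TMM (trimmed mean of M-values) factors and are given as depth-corrected counts (CPM). Log2 ratios carry a 95% CI from exact binomial (Clopper-Pearson) limits. It covers counting error only, and reads without identifiers of single molecules are not independent draws. A gene was called changed where its level differed at least 2-fold and its CI excluded 0. HDAC6, the shRNA target, had 3098, 2383 and 2170 counts in the order Ctrl, RT, RT + shHDAC6, the order used for all series of 3 values. The level with the shRNA was 87.2% of that without it, a log2 ratio of -0.20 (CI -0.28 to -0.11). In these counts, the library labelled as carrying the shRNA thus had only slightly less HDAC6 RNA. The paper reports lower HDAC6 mRNA by qPCR and lower protein by Western blot in its shHDAC6 T24 cells. It also reports that the rise of HDAC6 protein after irradiation was lost with the knockdown. Of 11 urothelial and epithelial markers, 8 had at least 10 counts, among them KRT18 with 7336, 8362 and 9048, whereas the uroplakins UPK1B, UPK2 and UPK3A, which define differentiated urothelium, had at most 3. KRT7 had 3533, 3854 and 597 counts and GATA3 2320, 1423 and 709, and both were called lower in RT + shHDAC6 against RT. For GATA3 the log2 ratio was -1.07, which became -0.98 with library totals. They were the only 2 of the 8 below 0 there, while 6 lay above 0 and the median was 0.29. Of all genes, 3.54% were called lower in that comparison. Of 13 markers of leukocytes, endothelium and fibroblasts, 12 had at least 10 counts and none was at 0, with COL3A1 reaching 7426 counts in Ctrl.

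EGFR, ERBB2 and HBEGF dominated the family at the RNA level. The 9 members were ranked within each library by TPM, a level corrected for gene length and depth, computed from the union of exon lengths. In Ctrl, EGFR stood highest with 69.3 TPM (CI 68.0 to 70.7), followed by ERBB2 with 55.6 and HBEGF with 55.5, which did not differ beyond their intervals. TGFA followed with 17.3 TPM, then EREG with 14.8 and AREG with 14.6, again inside each other's intervals. ERBB3 had 7.26 TPM, and BTC with 2.52 and NRG1 with 1.75 came last with overlapping intervals. In RT the leading order was EGFR with 110.5, HBEGF with 83.3 and ERBB2 with 75.9 TPM, each outside the others' intervals. EREG had moved past TGFA, with 22.7 against 13.2 TPM, and AREG followed with 7.17. ERBB3, NRG1 and BTC, at 3.87, 3.83 and 3.56 TPM, could not be ordered. In RT + shHDAC6, HBEGF stood first with 108.6 TPM (CI 104.5 to 112.7), above ERBB2 with 81.1 and EGFR with 79.9, whose intervals overlapped. EREG with 16.0 and TGFA with 15.9 TPM shared the next place, and AREG with 8.90, ERBB3 with 3.94, NRG1 with 2.73 and BTC with 1.85 followed, the last 2 with overlapping intervals. The order of EGFR, ERBB2 and HBEGF depended on the length used, which the counting intervals do not cover. With the longest transcript of each gene, ERBB2 came first in Ctrl and in RT + shHDAC6 and EGFR came first in RT. ERBB2 then lay above HBEGF in every library, with 85.8 against 51.9, 120.6 against 80.2 and 128.1 against 103.8 TPM.

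**Figure D1:**
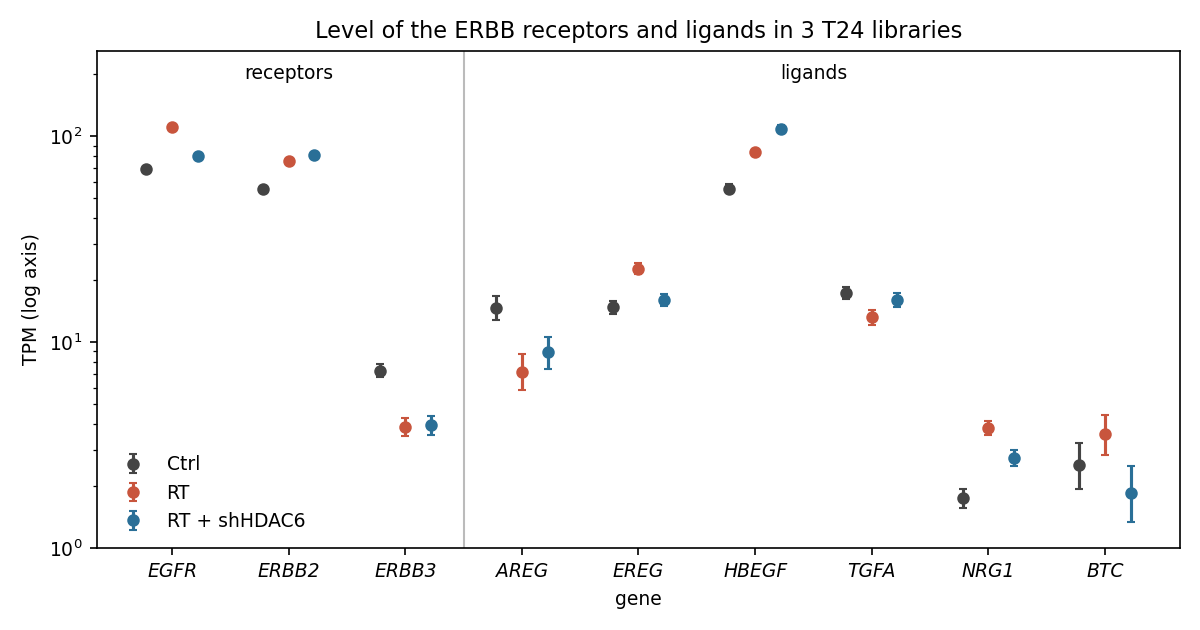
Level of the 9 genes in TPM on a log axis, with 1 point per library and bars for 95% counting intervals. EGFR, ERBB2 and HBEGF lie above 50 TPM in all 3 libraries, and HBEGF passes EGFR in RT + shHDAC6 with 108.6 against 79.9 TPM.

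Among the receptors, EGFR and ERBB2 were higher and ERBB3 lower in both irradiated libraries than in Ctrl. EGFR had 10250, 15120 and 10633 counts, or 226, 451 and 304 CPM. RT was the highest library and Ctrl the lowest. The log2 ratio of RT against Ctrl was 0.996 (CI 0.96 to 1.03), a level 1.99-fold that of Ctrl and just short of the 2-fold rule. Median-of-ratios scaling moved it to 1.05, which passed, and library totals to 0.78. In RT + shHDAC6 the level was 67.4% of the RT level, a log2 ratio of -0.57 (CI -0.61 to -0.53), and it remained above Ctrl by 0.43 (CI 0.39 to 0.47). EGFR shares 1.17% of its exon length with the antisense gene EGFR-AS1 on the other strand.

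ERBB2 (ENSG00000141736.13, chromosome 17, 39687914 to 39730426), the partner receptor, had 5319, 6721 and 6994 counts, or 117, 200.4 and 199.7 CPM. Both irradiated libraries lay above Ctrl and within counting error of each other. The log2 ratio to Ctrl was 0.77 (CI 0.72 to 0.82) in RT and 0.77 (CI 0.72 to 0.82) in RT + shHDAC6. RT + shHDAC6 against RT gave -0.0047 (CI -0.053 to 0.044), and library totals turned its sign, to 0.079. This interval does not overlap that of EGFR in the same comparison. It shares 6.93% of its exon length with MIEN1 and PGAP3 on the other strand, and the strand setting of the counting is not given in the sources used here.

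ERBB3 (ENSG00000065361.15, chromosome 12, 56076799 to 56103505) had 789, 389 and 385 counts, or 17.4, 11.6 and 11 CPM. The irradiated libraries were close to each other and below Ctrl. Its log2 ratio was -0.59 (CI -0.76 to -0.41) for RT against Ctrl and -0.66 (CI -0.84 to -0.48) for RT + shHDAC6 against Ctrl. Between the irradiated libraries it was -0.077 (CI -0.28 to 0.13), or 0.0067 with library totals. By TPM, ERBB3 made up 5.5%, 2.03% and 2.39% of the summed receptors. EGFR took 52.5%, 58.1% and 48.4% of the same sums.

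The ligands split into several patterns, with HBEGF the most abundant in every library. HBEGF (ENSG00000113070.7, chromosome 5, 140332843 to 140346603), which binds EGFR and ERBB4 and is also the diphtheria toxin receptor in its membrane form, had 1539, 2137 and 2712 counts, or 33.9, 63.7 and 77.4 CPM. Ctrl was lowest and RT + shHDAC6 highest. RT against Ctrl gave a log2 ratio of 0.91 (CI 0.81 to 1.004), and RT + shHDAC6 against RT gave 0.28 (CI 0.20 to 0.36). HBEGF rose 2.28-fold in RT + shHDAC6 against Ctrl, a log2 ratio of 1.19 (CI 1.10 to 1.28), and this call held under the 3 other scalings at 1.06 to 1.24. It was the only member called in that comparison. Its share of the summed TPM of the 6 ligands among the members was 52.1%, 62.3% and 70.5%. That sum leaves out the other ligand genes, so the shares would be lower with them. Among those left out, the neuregulin gene NRG2 had 31.4, 30.04 and 27.09 TPM. In each library this was more than any ligand of the members except HBEGF.

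NRG1 (ENSG00000157168.18, chromosome 8, 31639222 to 32855666), a ligand of ERBB3 and ERBB4, had 346, 702 and 487 counts, or 7.63, 20.9 and 13.9 CPM. RT was highest and RT + shHDAC6 lay between it and Ctrl. NRG1 rose 2.74-fold in RT against Ctrl, a log2 ratio of 1.46 (CI 1.27 to 1.65), and was called under all 4 scalings at 1.24 to 1.51. With the shRNA the level was 66.4% of the RT level, a log2 ratio of -0.59 (CI -0.76 to -0.42), and was above Ctrl by 0.87 (CI 0.66 to 1.07). Thus the receptor ERBB3 and its ligand NRG1 differed from Ctrl in opposite directions in RT. NRG1 shares 0.884% of its exon length with an unnamed gene on the same strand.

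EREG (ENSG00000124882.3, chromosome 4, 74365145 to 74388749), a ligand of EGFR and ERBB4, had 782, 1114 and 764 counts, or 17.2, 33.2 and 21.8 CPM. The order of the libraries was that of EGFR and NRG1, with RT highest and Ctrl lowest. Its log2 ratio was 0.95 (CI 0.81 to 1.08) for RT against Ctrl, or 1.004 with median-of-ratios scaling, which called it. RT + shHDAC6 against RT gave -0.61 (CI -0.74 to -0.47), a level of 65.7%, and RT + shHDAC6 against Ctrl gave 0.34 (CI 0.19 to 0.49). For EGFR, NRG1 and EREG alike, the level in RT + shHDAC6 was 65.7% to 67.4% of that in RT, and all 3 were called neither higher nor lower there by the 2-fold rule.

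BTC (ENSG00000174808.11, chromosome 4, 74744759 to 74794523), which binds EGFR and ERBB4, had the fewest counts of the members, 62, 81 and 41 counts, or 1.37, 2.42 and 1.17 CPM. RT was highest, and Ctrl and RT + shHDAC6 were within counting error of each other. BTC fell to 48.5% of its RT level in RT + shHDAC6, a log2 ratio of -1.04 with a wide CI of -1.62 to -0.49, and with library totals the value was -0.96 and the call was lost. RT against Ctrl gave 0.82 (CI 0.33 to 1.32), and RT + shHDAC6 against Ctrl gave -0.22 (CI -0.83 to 0.37).

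AREG and TGFA did not share the higher level in RT. AREG (ENSG00000109321.10, chromosome 4, 74445136 to 74455005), a ligand of EGFR alone, had 223, 101 and 122 counts, or 4.92, 3.01 and 3.48 CPM. Ctrl was highest. The log2 ratio of RT against Ctrl was -0.71 (CI -1.06 to -0.36), that of RT + shHDAC6 against RT 0.21 (CI -0.18 to 0.61) and that of RT + shHDAC6 against Ctrl -0.50 (CI -0.83 to -0.17). TGFA (ENSG00000163235.15, chromosome 2, 70447284 to 70554193), a ligand of EGFR made by many epithelia, had 789, 555 and 655 counts, or 17.4, 16.5 and 18.7 CPM. Scaled by library size, its 3 levels were close. RT against Ctrl gave -0.072 (CI -0.23 to 0.086), RT + shHDAC6 against RT 0.18 (CI 0.012 to 0.34) and RT + shHDAC6 against Ctrl 0.10 (CI -0.047 to 0.26), the last of which became -0.029 with library totals.

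**Figure D2:**
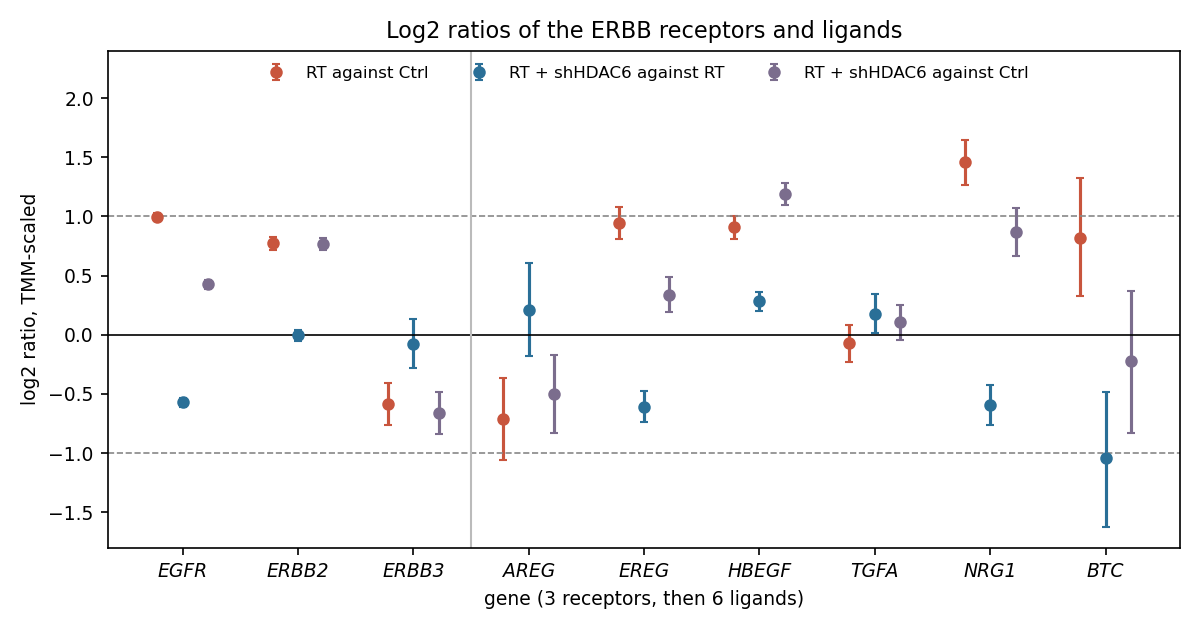
Log2 ratios of the 9 genes after TMM scaling for the 3 comparisons, with bars for 95% counting intervals, a solid line at 0 and dashed lines at a 2-fold difference. NRG1 in RT against Ctrl (1.46), BTC in RT + shHDAC6 against RT (-1.04) and HBEGF in RT + shHDAC6 against Ctrl (1.19) lie beyond the dashed lines.

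By the 2-fold rule, 1 of the 9 members was called higher in RT against Ctrl (NRG1) and 0 were called lower, where 4.15% and 6.07% of the 20527 genes were called. For RT + shHDAC6 against RT, 0 members were called higher and 1 lower (BTC), beside 2.58% and 3.54% of all genes. Against Ctrl, RT + shHDAC6 had 1 member called higher (HBEGF) and 0 lower, beside 4.22% and 7.87%. These are single genes in each comparison. At 1.5-fold, the members called were 8, 3 and 4 in the 3 comparisons, against 24.9%, 11.0% and 25.0% of all genes. In RT against Ctrl, these were 6 higher (EGFR, ERBB2, EREG, HBEGF, NRG1, BTC) and 2 lower (ERBB3, AREG), and TGFA was not called. ERBB3 only just passed 1.5-fold, and with median-of-ratios scaling its log2 ratio of -0.53 fell short of it. ERBB2 fell short with library totals, at 0.555. The methods of the study call differentially expressed genes with NOISeq. Under a re-implementation of that procedure with a probability over 0.4, 8, 5 and 7 members were called, against 60.7%, 39.8% and 61.2% of all genes.

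In RT against Ctrl, most members lay far from the middle of all genes, though short of 2-fold. The median log2 ratio was 0.77 over the 3 receptors and 0.86 over the 6 ligands, against -0.060 over all genes tested. NRG1 had a higher log2 ratio than 98.5% of genes, EGFR than 94.9%, EREG than 94.2%, HBEGF than 93.5%, BTC than 91.9% and ERBB2 than 90.9%. AREG exceeded 16.1% and ERBB3 20.5%. Between the irradiated libraries the medians were -0.077 and -0.21 against -0.0069, and BTC exceeded 5.67%, EREG 10.8%, NRG1 11.2% and EGFR 11.6% of genes. The receptors' median there was 0.0067 with library totals. Library totals in place of TMM moved every ratio by -0.22 for RT against Ctrl, 0.084 for RT + shHDAC6 against RT and -0.13 for RT + shHDAC6 against Ctrl. Of all genes called in RT against Ctrl, 40.6% were higher, against 17% with library totals, 49.1% with median-of-ratios scaling and 66.0% over genes reaching 100 counts in any library. In RT + shHDAC6 against Ctrl these shares were 34.9% and 23.1%. Under all 4 scalings the sign was the same for 9 of 9 members in RT against Ctrl, 7 of 9 in RT + shHDAC6 against RT (not ERBB2 and ERBB3) and 8 of 9 in RT + shHDAC6 against Ctrl (not TGFA).

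The level of a gene moved with its log2 ratio in RT against Ctrl. Over genes with a mean of 30 to 300 counts the median was -0.23, over those with 300 to 3000 it was 0.085, and over those above 3000 it was 0.13. The shares of genes below 0 were 62.4%, 42.8% and 38.2% in these ranges and 54.0% over all genes. AREG and BTC belong to the lowest of these ranges, ERBB3, EREG, HBEGF, TGFA and NRG1 to the middle, and EGFR and ERBB2 to the highest. The markers of other cell types lay low as well: 11 of the 12 with at least 10 counts had a log2 ratio below 0, from -0.79 to 0.34 with a median of -0.55, and their summed level was 412, 308 and 290.3 CPM. ERBB3 and AREG lay in the same range, at -0.59 and -0.71. The urothelial and epithelial markers also lay mostly low in RT against Ctrl. Of the 8 with at least 10 counts, 6 were below 0 and 2 above, with a median of -0.42. For these libraries the paper names only cultured T24 cells, which are 1 carcinoma line, and no other cell type. The part of level in these values and the origin of the marker reads were not tested.

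**Figure D3:**
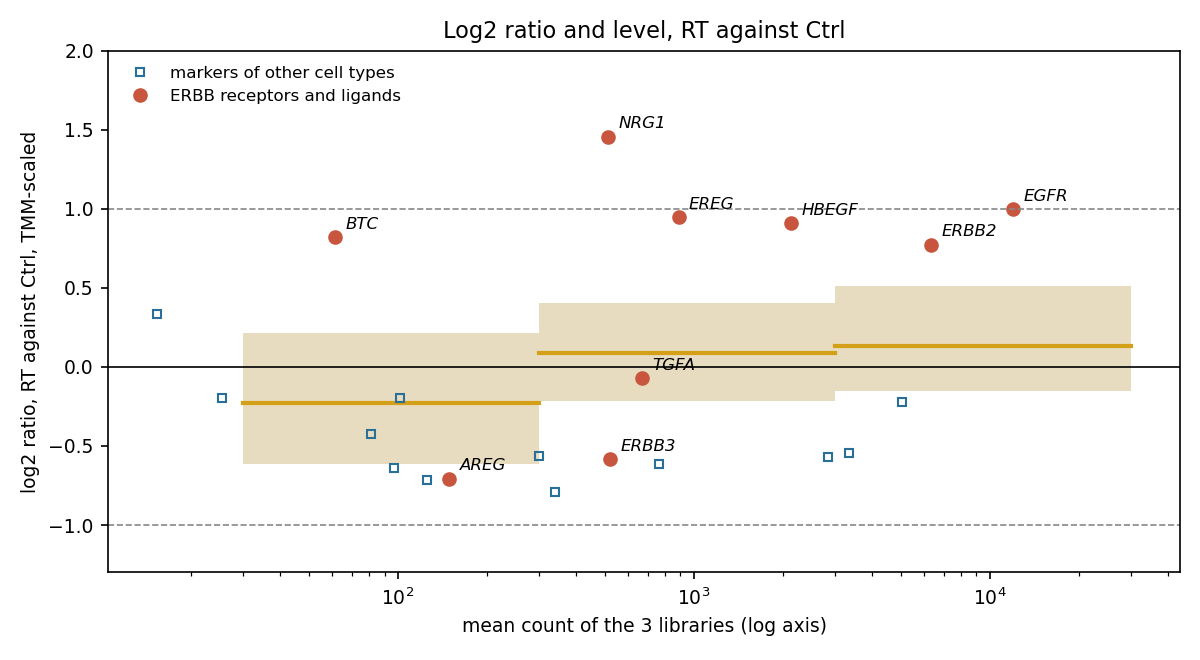
Log2 ratio of RT against Ctrl (TMM-scaled) against the mean count of the 3 libraries on a log axis, for the 9 genes (filled circles) and 12 markers of other cell types (open squares). Yellow lines and shaded bands give the median and the middle 50% of all genes in 3 ranges of counts, and dashed lines mark a 2-fold difference; EGFR, ERBB2, EREG, HBEGF, NRG1 and BTC lie above the bands, and ERBB3 and AREG below them.

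The other genes of the family were weakly expressed except NRG2. EPGN, which encodes the EGFR ligand epigen, had 56, 88 and 65 counts and was called higher in RT against Ctrl, with a log2 ratio of 1.09 (CI 0.59 to 1.60) that was 0.87 and not called with library totals. Its next ratio, RT + shHDAC6 against RT, was -0.50 (CI -0.98 to -0.020). ERBB4, the fourth receptor, had 97, 50 and 37 counts and was called lower in RT + shHDAC6 against Ctrl at -1.02 (CI -1.61 to -0.46), or -0.97 and not called with median-of-ratios scaling. The gene for EGF itself had 18, 5 and 7 counts, and its CI for RT against Ctrl reached from -3.20 to 0.070. NRG2, a further neuregulin, had 1340, 1186 and 1041 counts, or 31.4, 30.04 and 27.09 TPM. Its log2 ratios were 0.26 in RT against Ctrl and -0.25 in RT + shHDAC6 against RT. NRG3 had 35, 48 and 40 counts, and NRG4 had 1, 1 and 0, below the 3 counts that a count of 0 allows. Of these 6 genes, 5 had at least 10 counts. In RT against Ctrl, 1 was called higher and 0 lower, beside 4.15% and 6.07% of all genes. In RT + shHDAC6 against RT, 0 were called either way, beside 2.58% higher and 3.54% lower. Against Ctrl, RT + shHDAC6 had 0 higher and 1 lower, beside 4.22% and 7.87%.

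The genes of EREG, AREG, BTC and EPGN lie in a row beside the CXC chemokine genes. Between CXCL8 and BTC, chr4:73740519-74794523, the table held 24 genes, of which 9 had at least 10 counts. EREG and AREG are 56.4 kb apart and AREG and BTC 290.0 kb. Their log2 ratios in RT against Ctrl were 1.09 for EPGN, 0.95 for EREG, -0.71 for AREG and 0.82 for BTC, so that AREG lay below Ctrl between neighbours that lay above it. When RT + shHDAC6 was set against RT, the same 4 genes had -0.50, -0.61, 0.21 and -1.04, with AREG again on the other side of 0 but with a CI that included it. Beyond MTHFD2L, a mitochondrial folate enzyme gene with 409, 290 and 396 counts and a log2 ratio of -0.061 in RT against Ctrl, came the chemokines. CXCL1, a neutrophil attractant, had 183, 884 and 741 counts, CXCL2 60, 152 and 133, CXCL3 46, 64 and 64, and CXCL8 45, 73 and 154. In RT against Ctrl, CXCL1 rose by 2.71 (CI 2.48 to 2.94), CXCL2 by 1.78 (CI 1.34 to 2.23) and CXCL8 by 1.13 (CI 0.58 to 1.70, and 0.92 with library totals), and CXCL3 had 0.91 (CI 0.34 to 1.49). CXCL8 rose again in RT + shHDAC6 against RT by 1.01 (CI 0.60 to 1.44), while CXCL1 had -0.32, CXCL2 -0.25 and CXCL3 -0.062. The position was not used to choose the members, and the values describe 9 genes in 3 libraries.

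**Figure D4:**
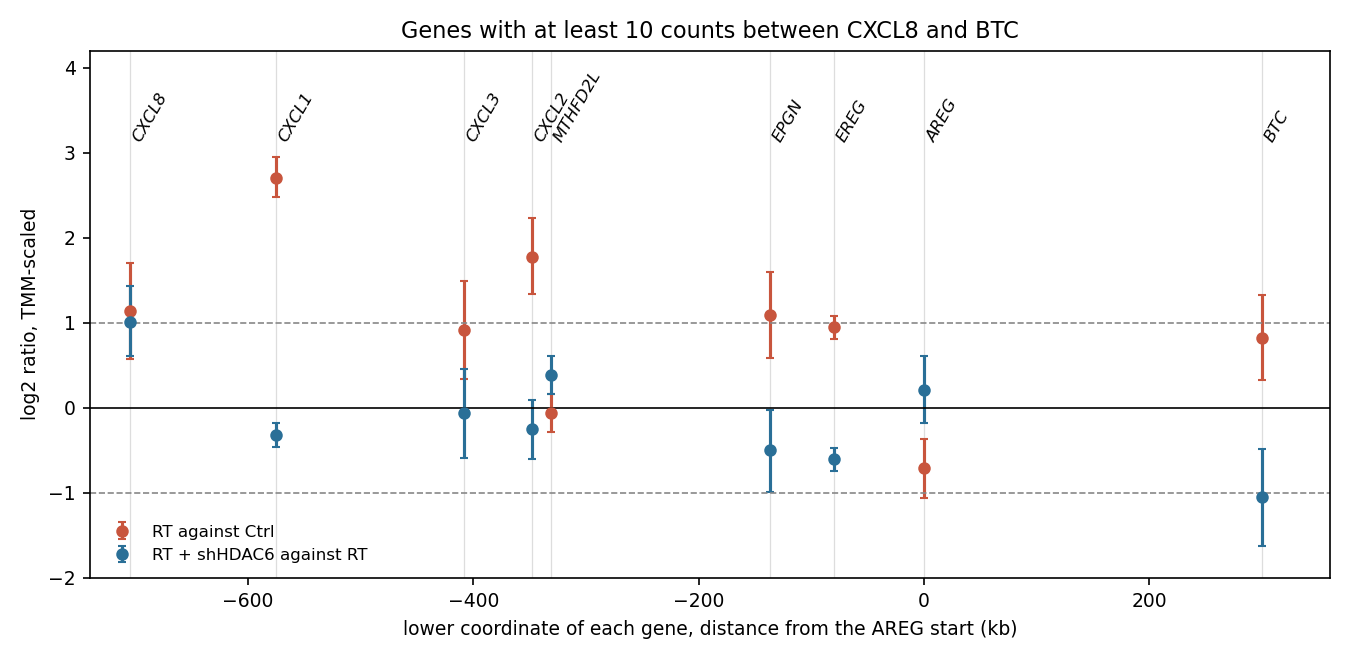
Log2 ratios (TMM-scaled) of the 9 genes with at least 10 counts between CXCL8 and BTC on chromosome 4, placed by the lower coordinate of each gene in kb from the AREG start, with bars for 95% counting intervals and dashed lines at a 2-fold difference. In RT against Ctrl the 4 chemokine genes, EPGN, EREG and BTC lie above 0 and AREG lies below it at -0.71.

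Genes acting around the receptors were grouped in 5 lists, whose calls stand beside 4.15% of all genes higher and 6.07% lower in RT against Ctrl and 2.58% and 3.54% in RT + shHDAC6 against RT. Their counts by sign stand beside 54.0% of all genes below 0 in RT against Ctrl and 50.8% in RT + shHDAC6 against RT. The ligand shedding list, with the ADAM proteases and the iRhom proteins that carry ADAM17 to the surface, had 10 of 12 genes above 0 in RT against Ctrl and a median of 0.39. ADAM15, a metalloprotease of this family, was the only gene of the list called there, with 3113, 5201 and 4217 counts and a log2 ratio of 1.18 (CI 1.11 to 1.24), or 0.96 and not called with library totals. For RT + shHDAC6 against RT the median of the list was -0.22, and ADAM12, a protease reported to cleave HBEGF, was called higher with 256, 112 and 264 counts and a log2 ratio of 1.17 (CI 0.85 to 1.51). ADAM17, the main sheddase of several EGFR ligands, had 5307, 4201 and 3486 counts. This was 117, 125 and 99.6 CPM, against 5.6, 3.3 and 7.5 CPM for ADAM12. The log2 ratios of ADAM17 were 0.098 (CI 0.039 to 0.16), which turned to -0.12 with library totals, and -0.33 (CI -0.40 to -0.27) in the 2 comparisons. ADAM10, the main sheddase of BTC, had 0.42 (CI 0.39 to 0.46) and -0.21 (CI -0.25 to -0.18). These 2 proteases were picked for their role after their values were seen. The list also counts TIMP3, an inhibitor of metalloproteases, at -0.51 (CI -0.59 to -0.44) and -0.77 (CI -0.88 to -0.67) in the same comparisons. TIMP3 too was named after its values were seen.

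The 3 lists of genes that act on the receptors inside the cell gave 0 calls by the 2-fold rule in these comparisons, but with library totals GAB2, an adaptor (-1.14), PTPN12, a phosphatase (-1.06), and ERRFI1 were called lower in RT against Ctrl. Of 18 adaptors and first effectors such as GRB2 and SHC1, 0 were called in either comparison, with medians of -0.21 in RT against Ctrl and 0.057 in RT + shHDAC6 against RT. The 14 inhibitors and phosphatases, such as the ubiquitin ligase CBL, also gave 0 calls, with medians of -0.15 and -0.12. The 18 genes of endocytosis and sorting gave 0 calls and medians of -0.29 and 0.027. Among the inhibitors, ERRFI1, a feedback inhibitor that binds the kinases of EGFR and ERBB2, had 26258, 10616 and 16385 counts. Its level was lowest in RT, with log2 ratios of -0.87 (CI -0.90 to -0.84) in RT against Ctrl and 0.56 (CI 0.53 to 0.60) in RT + shHDAC6 against RT. With library totals the first was -1.09. These 3 genes were chosen after their values were seen.

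The ERK feedback and response genes, which cells switch on when the ERK cascade is active, were mixed in RT: most had a lower ratio, while their summed level was higher, at 2196, 2647 and 3301 CPM. Of 16 genes, 12 were below 0 in RT against Ctrl, with a median of -0.45, and 14 were above 0 in RT + shHDAC6 against RT, where the median was 0.31. EGR1, an immediate early transcription factor, fell in RT, with 1999, 592 and 1272 counts and log2 ratios of -1.32 (CI -1.46 to -1.19) and 1.04 (CI 0.90 to 1.18). FOSL1, an AP-1 subunit, rose in RT, with 4843, 10288 and 13416 counts and a log2 ratio of 1.52 (CI 1.47 to 1.57) in RT against Ctrl. IER3, a stress-inducible survival gene, fell in RT + shHDAC6 against RT, with 3510, 1585 and 656 counts and a log2 ratio of -1.33 (CI -1.47 to -1.20). Also above 0 in RT against Ctrl were the abundant genes EPHA2, a receptor tyrosine kinase, at 0.97 (CI 0.94 to 0.99), and CCND1, which encodes cyclin D1, at 0.39 (CI 0.36 to 0.41). In each of the 2 comparisons 1 gene of the list was called higher and 1 lower. Other scalings added DUSP4 (-1.05, library totals) and EPHA2 (1.02, median-of-ratios) in RT against Ctrl and DUSP5 (1.02, library totals) in RT + shHDAC6 against RT; these and CCND1 were chosen after their values were seen. RT is shared by both comparisons, so an opposite sign in them is not independent. The medians of all 5 lists kept their sign under the 4 scalings in both comparisons.

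**Figure D5:**
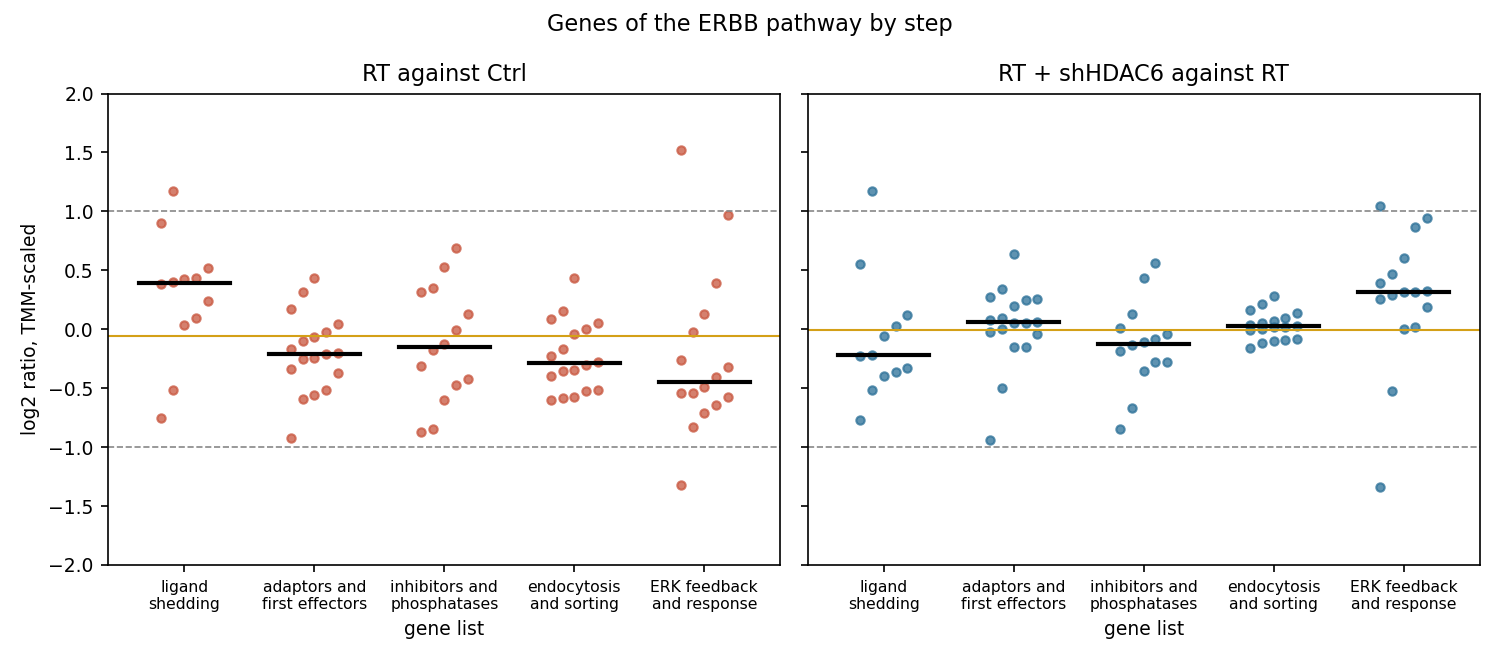
Log2 ratios (TMM-scaled) of the genes of 5 pathway lists, 1 point per gene, for RT against Ctrl (left) and RT + shHDAC6 against RT (right). Black bars give the list medians, the yellow line the median of all genes and dashed lines a 2-fold difference; the ERK feedback and response genes have medians of -0.45 and 0.31.

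The genes most like each member were found by the distance between their pairs of log2 ratios (RT against Ctrl and RT + shHDAC6 against RT), over 3 libraries and among 11492 genes with at least 100 counts in every library. EGFR was closest to STS, at a distance of 0.013, and to PTK7, at 0.018, and 41 genes lay within 0.1 of it. EREG was closest to FAM174A and TIMP1, with 36 genes within 0.1. NRG1 had the fewest such genes, 6, the nearest being SPHK1 at 0.040 and PLCB4 at 0.057, and HBEGF had 18, led by DDX28 and BAIAP2. For the others the nearest were CYB5D2 and ADCY6 for ERBB2 (157 within 0.1), DZIP3 and PHF6 for ERBB3 (140), VGLL3 and SOCS2-AS1 for AREG (61), and NUFIP2 and CRBN for TGFA (411). BTC had fewer than 100 counts and was not compared. The distance is a description over 3 libraries.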

How the data were processed

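The authors removed adaptors (cutadapt), mapped reads to GRCh38 by STAR (2.6.1a in the submitters' processing notes, another release in the paper) and summed them per gene of GENCODE release 28 by featureCounts. The deposited values are raw read counts. The library kit also differs between the labels and the paper, and strand and multi-mapping settings are not given in the sources used here. Nothing says how many cultures each library came from.

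From these counts, TMM factors were computed over the 3 libraries (edgeR 4.0.16, R 4.3.3), with median-of-ratios factors (DESeq2 1.42.0), upper quartile factors and library totals as alternatives. Neither tool's test was run, because each condition had 1 library. Symbols, positions and exon lengths came from GENCODE release 44, which matched 57754 of 58381 genes. Genes reaching 10 counts in any library were judged by the 2-fold rule with 95% Clopper-Pearson intervals (scipy 1.17.1), with a count of 0 set to 0.5. A floor of 3 counts equals 0.0662, 0.0894 and 0.0857 CPM in Ctrl, RT and RT + shHDAC6. NOISeq's procedure for unreplicated data was re-implemented (5 samples of 20% of depth).

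The members and lists were chosen with earlier results of these data known. Named genes were the 9 members, the 6 other family genes, HDAC6, genes of the lists called in RT against Ctrl or RT + shHDAC6 against RT, genes of the chromosome 4 window and the 2 genes most like each member. Other genes were named as examples of a list or marker set or, where the text says so, after their values were seen. The RNA-seq of tubacin-treated cells was not analysed here.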

Additional observations from a re-analysis of the deposited data

How the results depend on the processing

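The sign of the log2 ratio was the same under 4 scalings for all 9 members in RT against Ctrl, and ERBB2 and ERBB3 in RT + shHDAC6 against RT and TGFA in RT + shHDAC6 against Ctrl were exceptions elsewhere. The number of members called changed with the rule. In RT against Ctrl it was 1 by the 2-fold rule and 3 with median-of-ratios scaling (EGFR and EREG were added). At 1.5-fold it was 8 (ERBB3 only just, with TMM), and by the NOISeq procedure it was 8. In RT + shHDAC6 against RT it was 1, and 0 with library totals, 3 at 1.5-fold and 5 by NOISeq. In RT + shHDAC6 against Ctrl it was 1, and 4 at 1.5-fold and 7 by NOISeq. The share of all genes changed at least 2-fold was 10.2%, 6.11% and 12.1% in the 3 comparisons, fell to 6.66%, 4.01% and 7.75% over genes with any count, and to 6.44%, 3.39% and 7.99% over genes reaching 100 counts in any library, since the genes tested differ. Setting a count of 0 to 1 left the 3 counts of members the same. No paired analysis was possible because each condition had 1 library. Depth limited BTC most, with 41 to 81 counts. The spread between cultures is unknown, so a difference inside or outside a counting interval says nothing about how often it would recur.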
